A study of Mus musculus with 12 samples.

Results

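A set of 10 genes of oxysterol synthesis, cholesterol efflux and the liver X receptor (LXR) system was described: Ch25h, Abca1, Abcg1, Mylip, Nr1h2, Nr1h3, Apoe, Lpcat3, Pltp and Lpl. The members were chosen by name, with earlier results of these data known. The probe set annotated to each symbol was taken, which gave values for 9 of the 10 among 19505 genes tested. Nr1h2, which encodes LXR beta, is not analysed here. RNA came from RAW 264.7 cells, a mouse macrophage-like line, with 1 Affymetrix array for each of 12 samples. Every group was stimulated with lipopolysaccharide (LPS), a bacterial outer membrane component, at 500 ng/mL and was cultured for 6 hours at 37 °C in 5% CO2. The groups of 3 arrays were LPS alone, LPS with inulin (a plant fructan) at 500 µg/mL, LPS with TsSP at 50 µg/mL, and LPS with inulin and TsSP. TsSP is written as the labels give it, and the series' design text speaks of products of helminths, which are parasitic worms. No array without LPS was used, so basal levels of these genes and their response to LPS are outside the data.

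LXR alpha (Nr1h3) and LXR beta (Nr1h2) are nuclear receptors that sense oxysterols, the oxidised forms of cholesterol, and act as partners of retinoid X receptors. Their known targets in macrophages include the cholesterol exporters Abca1 and Abcg1, the ubiquitin ligase Mylip (also called IDOL), the lipoprotein genes Apoe, Pltp and Lpl, and the phospholipid-remodelling enzyme Lpcat3. Ch25h encodes the hydroxylase that makes an oxysterol from cholesterol, and it is known as a gene induced by interferon and by LPS in macrophages. Besides activating LXR, the oxysterol it makes retains the sterol-sensing transcription factor SREBP2 in the endoplasmic reticulum.

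The promoters of Ch25h and Abca1 are shown because these genes had the largest fall and the largest rise among the members. RefSeq promoter windows of assembly GRCm38.p6 were held for 8 of the 10 genes, and the 250 bases before the annotated start were searched on both strands. Both genes lie on the minus strand, and the sequences run 5′ to 3′ up to the base before the start. The first window is chr19:34475149-34475398 and the second chr4:53159896-53160145. Capitals mark TATAAA (the letters of a core promoter box, wherever they lie) in both and TGACGTCA (a cyclic AMP response element) in Ch25h. In Abca1 they also mark CACGTG (an E-box) and a loose match to an LXR direct repeat.
Ch25h: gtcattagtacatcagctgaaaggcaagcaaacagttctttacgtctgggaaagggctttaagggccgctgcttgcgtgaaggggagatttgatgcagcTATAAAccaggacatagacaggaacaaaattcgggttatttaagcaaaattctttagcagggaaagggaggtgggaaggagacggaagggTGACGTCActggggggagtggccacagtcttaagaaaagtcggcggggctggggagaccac
Abca1: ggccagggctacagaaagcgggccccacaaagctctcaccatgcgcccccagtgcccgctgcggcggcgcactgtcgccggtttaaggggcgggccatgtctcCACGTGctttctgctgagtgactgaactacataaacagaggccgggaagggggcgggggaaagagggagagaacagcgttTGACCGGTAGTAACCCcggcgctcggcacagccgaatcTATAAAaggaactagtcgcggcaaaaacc

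In the Ch25h window TGACGTCA lay 61 to 54 bases before the start. That motif was present in 1.55% of all 32851 windows of the same length. TATAAA, which 12.4% of windows held, lay 151 to 146 bases before the start of Ch25h and 29 to 24 bases before that of Abca1. CACGTG, held by 6.02% of windows, lay 147 to 142 bases before the start of Abca1. The LXR repeat was searched as AGGTCA followed by any 4 bases and a second AGGTCA, with at most 3 mismatches, and 18.5% of windows held such a match. In Abca1 the match lay 67 to 52 bases before the start on the opposite strand, with 3 mismatches. An interferon-type motif, GAAA followed by any 2 bases and a second GAAA, was held by 2.98% of windows and by none of those of the members. The matches describe letters in these windows and are not measured binding.

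**Figure D1:**
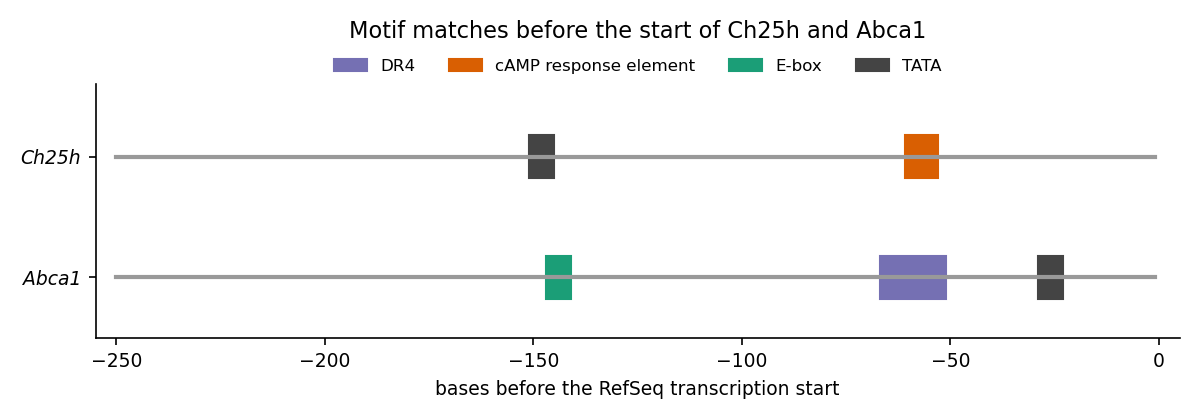
Motif matches in the 250 bases before the annotated start of Ch25h and Abca1, plotted by distance from the start in bases, with 1 line for each gene. Ch25h held TGACGTCA and TATAAA, and Abca1 held TATAAA and also CACGTG and the loose match to the LXR direct repeat.

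Array medians lay between 5.16 and 5.30 log2 units. LPS replicate 1 had the lowest median, and its background median of 4.99 was the lowest too. The exon control medians were higher on the 6 arrays with TsSP (11.22 to 11.36) than on the 6 without (11.00 to 11.21), and their part in the results was not tested. All 8 measured macrophage markers were above background on 12 arrays, where background is the brightest of 23 background probes on an array. They were not all stable: Itgam and Lyz2 passed as higher and Adgre1 as lower for TsSP against LPS alone. Itgam and Fcgr1 passed as higher and Adgre1 as lower when TsSP was added to inulin and with both agents. None of 3 T cell, 3 B cell, 4 epithelial and 4 hepatocyte markers was above background on any array. Of the adipocyte markers, Adipoq, Plin1 and Cidec were at background on every array, while Fabp4, a fatty acid carrier that macrophages also make, was above it on all 12. Of the fibroblast markers, Dcn was above background on 12 arrays, Col1a1 on 1 and Col1a2 on 0. Dcn passed as lower when TsSP was added to inulin and with both agents, and the part of this in the results was not tested. Whether the 3 samples of a group were grown as separate cultures is not stated, so the p-values rest on a spread between samples that may be only technical. In RNA from whole cultures, fewer cells expressing a gene and less RNA of it per cell cannot be told apart.

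With TsSP, 2 of the 9 measured genes rose (Abca1 and Lpcat3), 4 fell (Ch25h, Mylip, Abcg1 and Lpl), and Nr1h3, Apoe and Pltp did not pass the test. A gene passed at an adjusted p under 0.05 in a limma fit of all 12 arrays, adjusted over the 19505 genes. The 6 of 9 called for TsSP against LPS alone stand beside 18.1% of all genes (11.0% higher, 7.08% lower). Among the 9022 genes above background in at least 1 group the share was 34.9%. Because the members were chosen with earlier results of these data known, the shares do not test the set. Of the 9, 7 were above background on every array of at least 1 group. The same 6 genes passed in the same direction when TsSP was added to inulin, a comparison of the other 6 arrays in which 16.7% of all genes were called (8.66% higher, 7.99% lower) and 32.4% of those above background. They did so too for both agents against LPS alone, where 17.6% of all genes were called (10.3% higher, 7.30% lower) and 34.4% of those above background, although that comparison shares the LPS arrays with the first. The groups of 3 arrays did not overlap in 7 of 9 genes for TsSP against LPS alone (32.7% of all genes), in 6 when TsSP was added to inulin (32.7%) and in 7 with both agents against LPS alone (31.3%). The median log2 change of the 9 genes for TsSP against LPS alone was -0.54, against 0.019 over all genes. This median is the value of Nr1h3, which did not pass the test, and it was -0.32 without TsSP replicate 3 and -1.12 over the 7 members above background. Of all calls in that comparison 60.8% were higher as deposited (2144 higher, 1381 lower) and 50.9% after quantile normalization (1693 higher, 1631 lower). The 6 members kept their calls and directions under both.

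**Figure D2:**
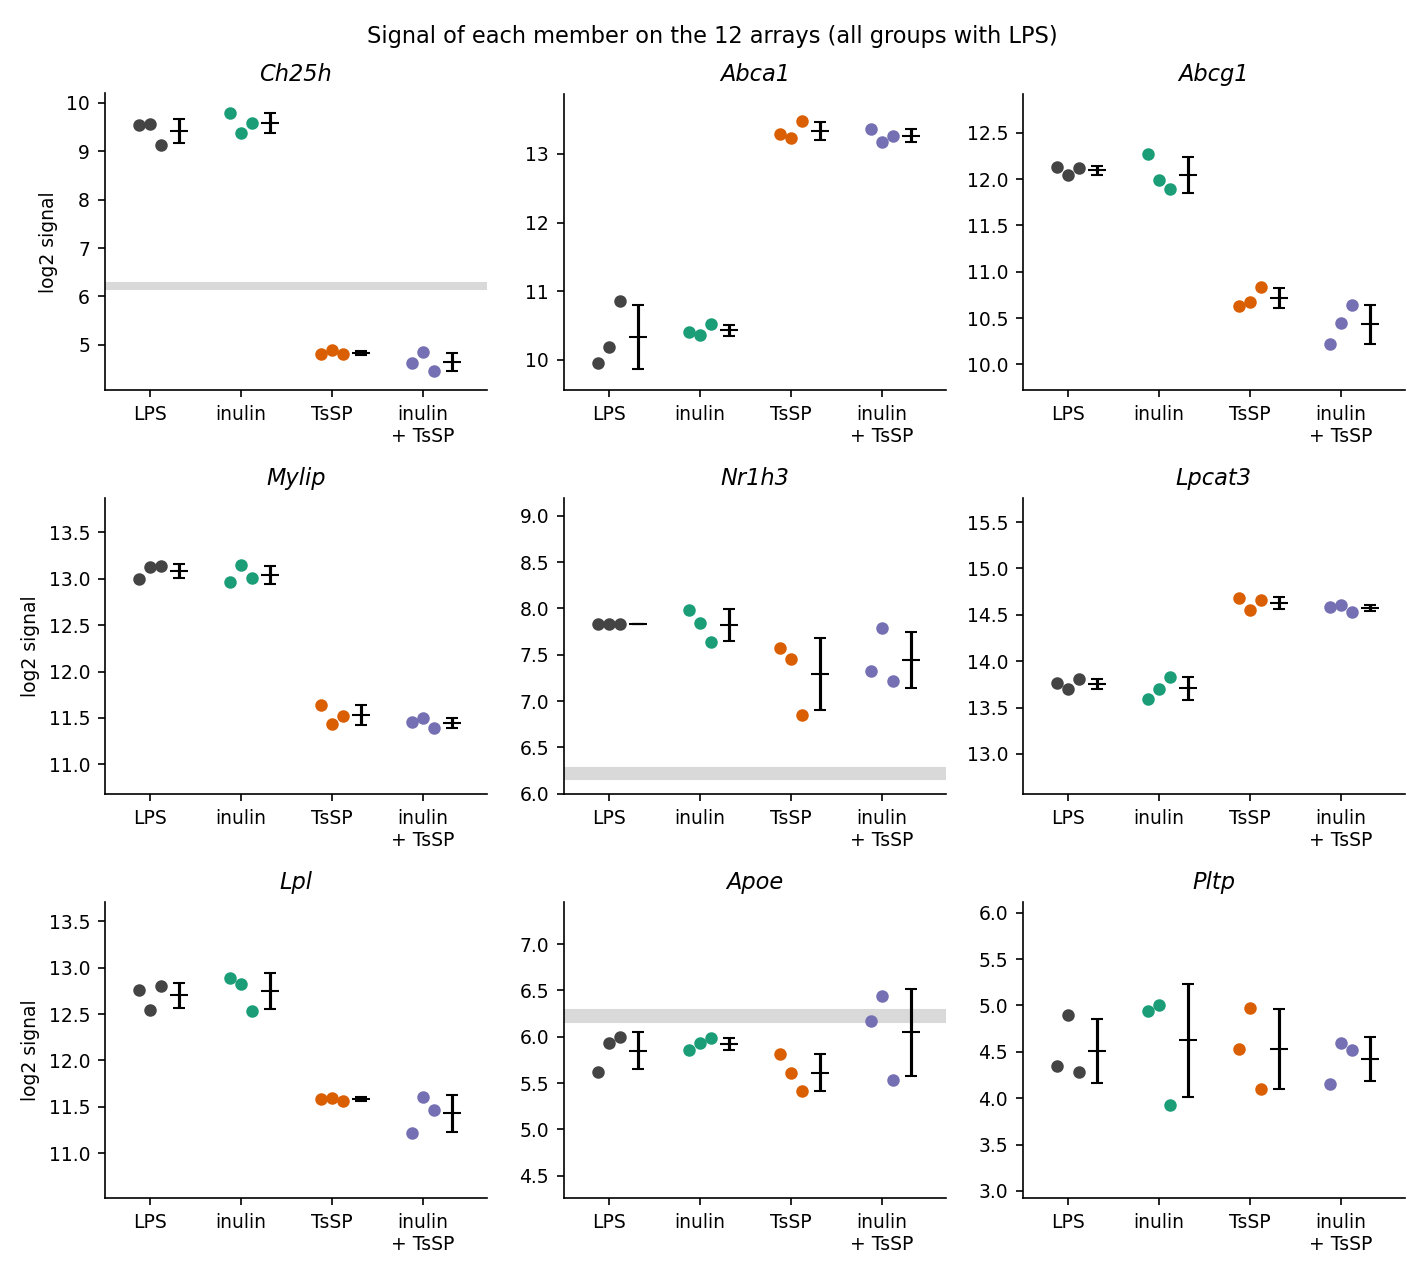
Log2 signal of each of the 9 measured genes on each array (points), with the mean and SD of each group of 3 arrays (bars) and the range over arrays of the brightest background probe (grey band). The vertical axes differ between genes. Ch25h fell below the band in both groups with TsSP, whereas Abca1 and Lpcat3 were higher and Abcg1, Mylip and Lpl lower in those groups.

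Ch25h, the oxysterol-making hydroxylase, had the largest change of the 9 genes (probe set TC1900001418.mm.2). Its log2 signal was 9.55, 9.56 and 9.13 on the LPS arrays and 9.79, 9.37 and 9.59 on the inulin arrays. With TsSP it was 4.81, 4.89 and 4.80, and with inulin and TsSP 4.62, 4.84 and 4.46. All 6 arrays without TsSP were above background and all 6 with TsSP were below it, with a gap of over 4 log2 units between them. The difference of means for TsSP against LPS alone was -4.58 (SE 0.16, adjusted p = 1.89e-08). Measured against the background level, Ch25h was at least 9.39-fold lower with TsSP than with LPS alone. When TsSP was added to inulin it was at least 10.05-fold lower (difference -4.94, adjusted p = 1.27e-08).

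Of the 11 measured genes of the interferon input to Ch25h, 5 fell and 1 rose with TsSP. The list median was -0.28 against 0.019 over all genes. The shares called were 18.1% of all genes and 34.9% of those above background. Irf1, an interferon-induced transcription factor, was 14.17, 14.21 and 14.03 on the LPS arrays and 12.00, 12.00 and 12.30 on the TsSP arrays, and it fell 4.11-fold (log2 SE 0.14, adjusted p = 1.71e-06). Atf3, a stress-induced transcription factor known to repress Ch25h, had a mean log2 signal of 15.18 ± 0.029 with LPS alone and 13.93 ± 0.054 with TsSP (SD, n = 3), a 2.38-fold fall (adjusted p = 5.75e-06). Whether Atf3 acted on Ch25h in these cells was not tested. Stat2 and Tyk2, which carry the signal of the type I interferon receptor, fell 1.67-fold and 1.65-fold. Ifnb1, the interferon beta gene, passed as lower (adjusted p = 0.0105) but lay below background in every group, so no fold is given. Ifnar1, a subunit of the receptor, rose 1.94-fold. With TsSP added to inulin, 7 of the 11 fell and 2 rose (16.7% of all genes called, 32.4% of those above background). Irf1 was 4.80-fold and Atf3 2.25-fold lower there.

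Other genes of oxysterol metabolism and binding moved both ways. Of 17 measured, 10 were above background on every array of at least 1 group. With TsSP 4 rose and 2 fell (list median 0.070), beside 18.1% of all genes called and 34.9% of those above background. The same 6 were called when TsSP was added to inulin, beside 16.7% and 32.4%. Gpr183 encodes the receptor for the dihydroxylated oxysterol that is made from the Ch25h product. It was below background on all 6 arrays without TsSP and above it on all 6 with TsSP, at 8.12, 8.10 and 8.12 with TsSP and 8.38, 8.01 and 7.73 with both agents. It was at least 3.67-fold higher with TsSP than with LPS alone (adjusted p = 5.15e-06) and at least 3.56-fold higher when TsSP was added to inulin. The enzyme that breaks down the Gpr183 ligand, Hsd3b7, rose 2.16-fold (log2 SE 0.20, adjusted p = 0.0025). Its 1.71-fold rise when TsSP was added to inulin (adjusted p = 0.0222) lost its call without inulin and TsSP replicate 2 and without replicate 3 of that group, where the adjusted p reached 0.0739. It also lost it in a fit of the arrays compared alone, at adjusted p = 0.084. Of the oxysterol-binding protein family, which carries sterols and phospholipids between membranes, Osbpl2 and Osbpl9 rose 1.75-fold and 1.63-fold. Osbpl8 fell 1.84-fold, and Osbpl3 was at least 4.08-fold lower.

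Abca1 moves cholesterol and phospholipid out of the cell onto lipid-poor apolipoprotein (probe set TC0400002665.mm.2). Its log2 signal was 9.96, 10.18 and 10.86 with LPS alone and 10.41, 10.36 and 10.52 with inulin. It was 13.29, 13.23 and 13.48 with TsSP and 13.36, 13.17 and 13.26 with both agents. The 2 sets of 6 arrays did not overlap, and LPS replicate 3 was the highest of those without TsSP. Abca1 rose 8.00-fold with TsSP against LPS alone (difference 3.00, SE 0.20, adjusted p = 1.39e-06). When TsSP was added to inulin it rose 7.13-fold (difference 2.83, adjusted p = 1.95e-06).

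Abcg1, which exports cholesterol to mature high-density lipoprotein, moved the other way (probe set TC1700000528.mm.2). Its signal was 12.13, 12.04 and 12.11 with LPS alone and 12.27, 11.99 and 11.89 with inulin. With TsSP it was 10.63, 10.68 and 10.84, and with both agents 10.22, 10.44 and 10.64. All 6 arrays with TsSP were lower than all 6 without. Abcg1 fell 2.60-fold with TsSP against LPS alone (difference -1.38, SE 0.14, adjusted p = 3.93e-05) and 3.07-fold when TsSP was added to inulin (difference -1.62, adjusted p = 1.22e-05). These exporter genes, both known LXR targets, thus changed in opposite directions in both comparisons.

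The genes whose signal was most like that of each leading member were taken from 8733 named genes above background in at least 1 group, by Pearson r over the 12 arrays. For Ch25h they were Tnfsf15, Icosl, Ifit1, Mthfs and Gch1, with r of 0.997 to 0.998. For Abca1 they were Erf, Zswim6, Tifab, Vsir and Shtn1, with r of 0.993 to 0.995. For Abcg1 they were Ccl7, Tnfaip2, Itga4, Irak2 and Irf1, with r of 0.989 to 0.992. For Mylip they were Slamf7, Tnf, Icam1, Peli1 and Slfn5, with r of 0.996 to 0.998. The points fall into 2 sets, 6 arrays with TsSP and 6 without, so these values describe mainly that split.

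Mylip encodes the ligase that marks receptors of the low-density lipoprotein receptor family for degradation (probe set TC1300000522.mm.2). Its signal was 13.00, 13.12 and 13.14 with LPS alone and 12.96, 13.14 and 13.01 with inulin. It was 11.64, 11.43 and 11.52 with TsSP and 11.45, 11.50 and 11.39 with both agents. The arrays with and without TsSP did not overlap. Mylip fell 2.95-fold with TsSP against LPS alone (difference -1.56, SE 0.11, adjusted p = 2.3e-06) and 3.01-fold when TsSP was added to inulin (adjusted p = 1.98e-06). Of the 7 genes that work with Mylip in ubiquitin transfer or share its membrane-binding domain type, 1 was called in each of these comparisons. All 7 were above background on all 12 arrays. The shares called were 18.1% and 16.7% of all genes, and 34.9% and 32.4% of those above background. Msn, the cytoskeletal linker moesin, was 1.31-fold lower with TsSP (adjusted p = 0.0481). Of 12 fits with 1 array left out, 10 ended that call, all but those without TsSP replicate 1 and without inulin and TsSP replicate 1, and the adjusted p reached 0.155 (TsSP replicate 3 left out). It was 0.0741 with the replicate block and 0.103 in a fit of the arrays compared alone. Usp2, a deubiquitinase known to act on Mylip, was 2.20-fold lower when TsSP was added to inulin, a call that 4 such fits ended, those without replicate 1 or 2 of inulin or of inulin and TsSP, where the adjusted p reached 0.0653.

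Among 23 measured genes of cholesterol uptake, storage and transport, 6 rose and 1 fell with TsSP (list median 0.079). Of the 23, 15 were above background on all 12 arrays. The shares called in that comparison were 18.1% of all genes and 34.9% of those above background. Lrp8, an apolipoprotein E receptor whose protein is a known substrate of Mylip, had the largest rise. Its signal was 7.51, 7.85 and 7.96 with LPS alone and 10.75, 10.53 and 10.40 with TsSP, and it was 6.90-fold higher (log2 SE 0.16, adjusted p = 6.72e-07). When TsSP was added to inulin it was 8.41-fold higher. Lrp1, a large endocytic lipoprotein receptor, rose 2.53-fold, Stard4, a cytosolic sterol carrier, 2.15-fold, and Scarb1, the high-density lipoprotein receptor, 2.02-fold. The lipid transporter gene Abca7 also passed as higher, although it lay below background on every array and has no fold. Nceh1, a hydrolase of cholesterol esters, fell 1.56-fold. With TsSP added to inulin, Lrp1, Lrp8, Scarb1 and Stard4 rose and Nceh1 fell.

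SREBP2 drives sterol synthesis and uptake genes when membrane cholesterol is low. Of 7 measured genes of this arm, 4 rose and 0 fell with TsSP (18.1% of all genes called, 34.9% of those above background). The list median was 0.54. When TsSP was added to inulin, 3 of the 7 rose and 0 fell (16.7% of all genes called, 32.4% of those above background). Insig1, which encodes a sterol-dependent anchor of SREBP2 and is itself a target of it, was 11.78, 11.81 and 11.97 with LPS alone and 13.33, 13.33 and 13.26 with TsSP. It rose 2.74-fold (log2 SE 0.14, adjusted p = 2.11e-05), and 2.09-fold when TsSP was added to inulin. The sterol synthesis genes Sqle and Hmgcs1 rose 2.68-fold and 1.89-fold. Insig2, a related anchor, was 1.46-fold higher (adjusted p = 0.0212), and lost its call after quantile normalization (adjusted p = 0.131). It also lost it in 4 of 12 fits with 1 array left out, where the adjusted p reached 0.0792. These were the fits without LPS replicate 2 or 3 and without TsSP replicate 2 or 3. Insig2 did not pass when TsSP was added to inulin (adjusted p = 0.113).

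**Figure D3:**
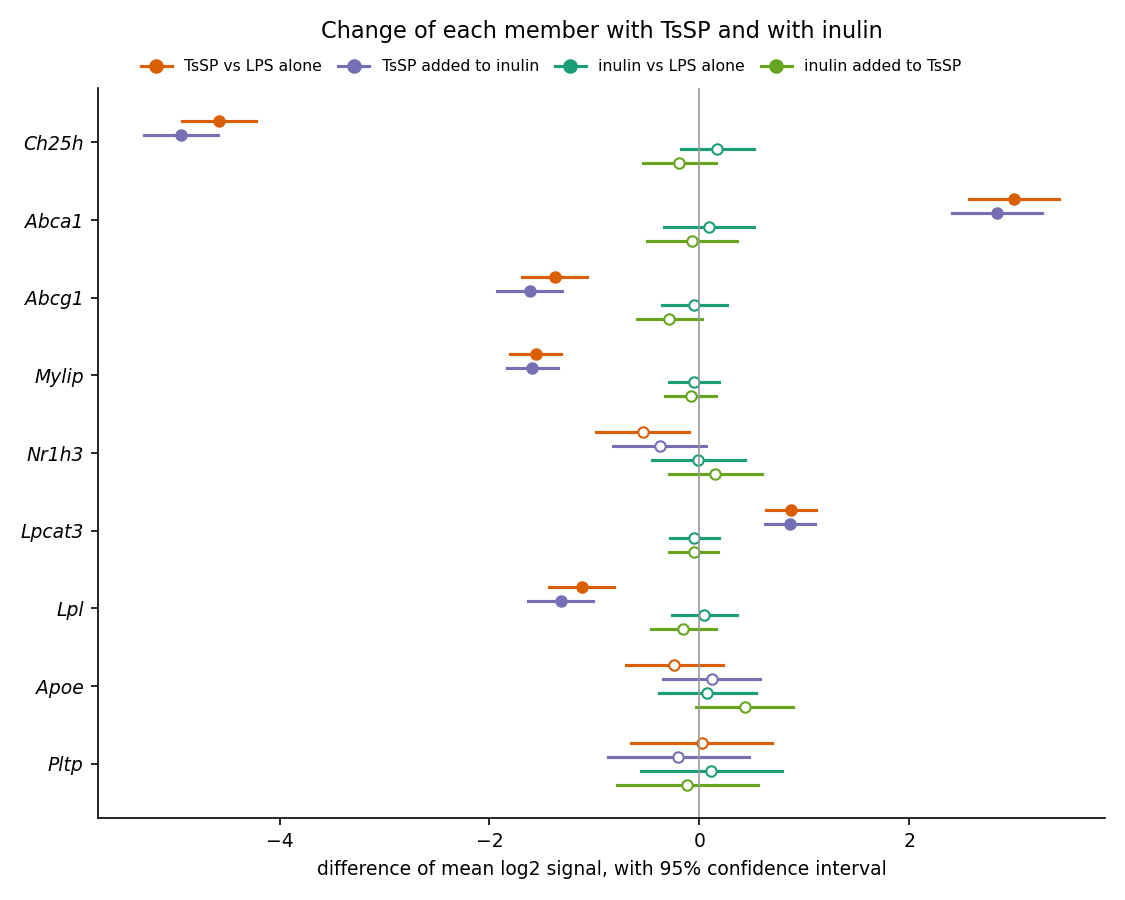
Log2 change of the 9 measured genes in the comparisons, with 95% intervals from the limma fit. Filled points passed the test and open circles did not. Abca1 and Lpcat3 lay above 0 and Ch25h, Abcg1, Mylip and Lpl below 0 in each comparison of arrays with and without TsSP, while every point for inulin was open.

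Nr1h3, the LXR alpha gene, did not pass the test in any comparison as deposited (probe set TC0200004109.mm.2). Its signal was 7.83 on all 3 LPS arrays and 7.98, 7.84 and 7.64 with inulin. It was 7.57, 7.45 and 6.85 with TsSP and 7.32, 7.79 and 7.22 with both agents. The TsSP arrays lay below the LPS arrays without overlap, while the arrays with both agents overlapped those with inulin. The difference for TsSP against LPS alone was -0.54 (SE 0.20, adjusted p = 0.0947), and that for TsSP added to inulin was -0.38 (adjusted p = 0.264). The first passed after quantile normalization (difference -0.78, adjusted p = 0.0148) and when only genes above background were tested (adjusted p = 0.0362). Without TsSP replicate 3 that difference was -0.32, and over all alternatives fitted its adjusted p reached 0.317.

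Of 16 measured partners and coregulators of LXR, 14 were above background on every array of at least 1 group. With TsSP 2 rose and 3 fell (list median -0.14), beside 18.1% of all genes called and 34.9% of those above background. Rxra, a retinoid X receptor that pairs with LXR, was 5.33, 5.42 and 6.04 with LPS alone, below background, and 6.84, 6.73 and 7.01 with TsSP, above it. It was at least 1.54-fold higher (adjusted p = 0.00272), and at least 1.92-fold higher when TsSP was added to inulin. Med1, a Mediator subunit that binds nuclear receptors, and Tbl1x, a corepressor component, each fell 1.48-fold. The coactivator gene Ncoa2 was 1.52-fold higher and the deacetylase gene Sirt1 1.43-fold lower, with adjusted p of 0.0392 and 0.0244. Ncoa2 lost its call in 7 of the 12 fits with 1 array left out, those without LPS replicate 1 or 3, inulin replicate 2 or 3, or any TsSP replicate, and its adjusted p reached 0.126. It also lost it after quantile normalization (adjusted p = 0.0667) and in a fit of the arrays compared alone (adjusted p = 0.0837). Sirt1 lost its call in 4, those without LPS replicate 1 or 2 or TsSP replicate 1 or 2, with its adjusted p reaching 0.0997, and in the fit of the arrays compared alone (adjusted p = 0.0671). When TsSP was added to inulin, 4 of the 16 rose and 3 fell (16.7% of all genes called, 32.4% of those above background). Rxra, Ncoa2, Med1 and Tbl1x moved as before, Rxrb and Tbl1xr1 rose, and Ncoa3 fell. Sirt1 did not pass in that comparison (adjusted p = 0.108). Of the calls there, Ncoa3 was lost without any one of the 9 arrays that were not LPS alone (adjusted p of 0.138 at most). Rxrb was lost without any one of the 6 arrays compared (0.0922 at most). Tbl1xr1 was lost in 4 fits, without replicate 1 or 3 of inulin or replicate 1 or 2 of both agents (0.123 at most), after centring each array on its median (adjusted p = 0.0525) and in the fit of the arrays compared alone (adjusted p = 0.0764). Tbl1x was lost in 3, without inulin replicate 1 or without replicate 2 or 3 of both agents (0.0638 at most).

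Lpcat3 inserts polyunsaturated acyl chains into membrane phospholipids (probe set TC0600001425.mm.2). Its signal was 13.76, 13.70 and 13.81 with LPS alone and 13.59, 13.70 and 13.83 with inulin. It was 14.68, 14.55 and 14.66 with TsSP and 14.58, 14.60 and 14.53 with both agents. The 2 sets of 6 arrays did not overlap. Lpcat3 rose 1.83-fold with TsSP against LPS alone (difference 0.87, SE 0.11, adjusted p = 0.000159) and 1.82-fold when TsSP was added to inulin (adjusted p = 0.000169).

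Of 15 other LXR targets measured, 4 rose and 0 fell with TsSP (list median 0.20). Among all genes 18.1% were called, and among those above background 34.9%. The 4 targets that rose belong to fatty acid synthesis and desaturation. Fads1, a desaturase of polyunsaturated fatty acids, was 11.98, 12.20 and 12.12 with LPS alone and 13.69, 13.45 and 13.50 with TsSP, and it rose 2.73-fold (log2 SE 0.12, adjusted p = 5.9e-06). The partner desaturase Fads2 rose 1.90-fold, the elongase Elovl5 1.77-fold and the fatty acid synthase Fasn 1.73-fold. With TsSP added to inulin, Fads1, Fads2 and Elovl5 rose 2.42-fold, 1.70-fold and 1.58-fold, while Fasn did not pass (adjusted p = 0.0951). Of the 15 genes in this list, 6 were above background on all 12 arrays. Among them Mertk did not pass for TsSP against LPS alone (log2 change 0.059, adjusted p = 0.901).

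Lpl, the lipase that releases fatty acids from lipoproteins, fell in both comparisons (probe set TC0800000707.mm.2). Its signal was 12.75, 12.55 and 12.80 with LPS alone and 12.89, 12.82 and 12.53 with inulin. It was 11.58, 11.60 and 11.56 with TsSP and 11.21, 11.60 and 11.47 with both agents. All 6 arrays with TsSP were lower than all 6 without. Lpl fell 2.17-fold with TsSP against LPS alone (difference -1.12, SE 0.14, adjusted p = 0.000183) and 2.50-fold when TsSP was added to inulin (difference -1.32, adjusted p = 5.34e-05). Of 11 measured partners of Lpl and lipoproteins, 4 were above background on every array of at least 1 group. Beside 18.1% of all genes called and 34.9% of those above background, 0 of the 11 rose and 1 fell with TsSP. That gene was Lipg, the related endothelial lipase, at 9.49, 9.55 and 9.68 with LPS alone and 8.77, 8.58 and 8.76 with TsSP, which is 1.83-fold lower (adjusted p = 0.00329). It fell 2.72-fold when TsSP was added to inulin. Adipocytes also express Lpl, and the summed signal of the 4 adipocyte markers, on the log2 scale, was 8.57 to 9.43 with LPS alone, 8.24 to 9.05 with inulin, 7.62 to 8.07 with TsSP and 7.60 to 7.74 with both agents. Fabp4 fell with TsSP, and the other 3 were at background on every array.

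Apoe and Pltp, which encode a lipoprotein ligand and a phospholipid transfer protein, were at or near background. Apoe was above the brightest background probe on 1 of 12 arrays, a sample with inulin and TsSP at 6.44, and lay between 5.41 and 6.17 on the other 11. Pltp was above it on 0 of 12 arrays and lay between 3.92 and 5.00. Neither passed the test, at adjusted p = 0.531 for Apoe and 0.972 for Pltp with TsSP against LPS alone, and changes in dim probe sets such as these are not well measured by an array.

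**Figure D4:**
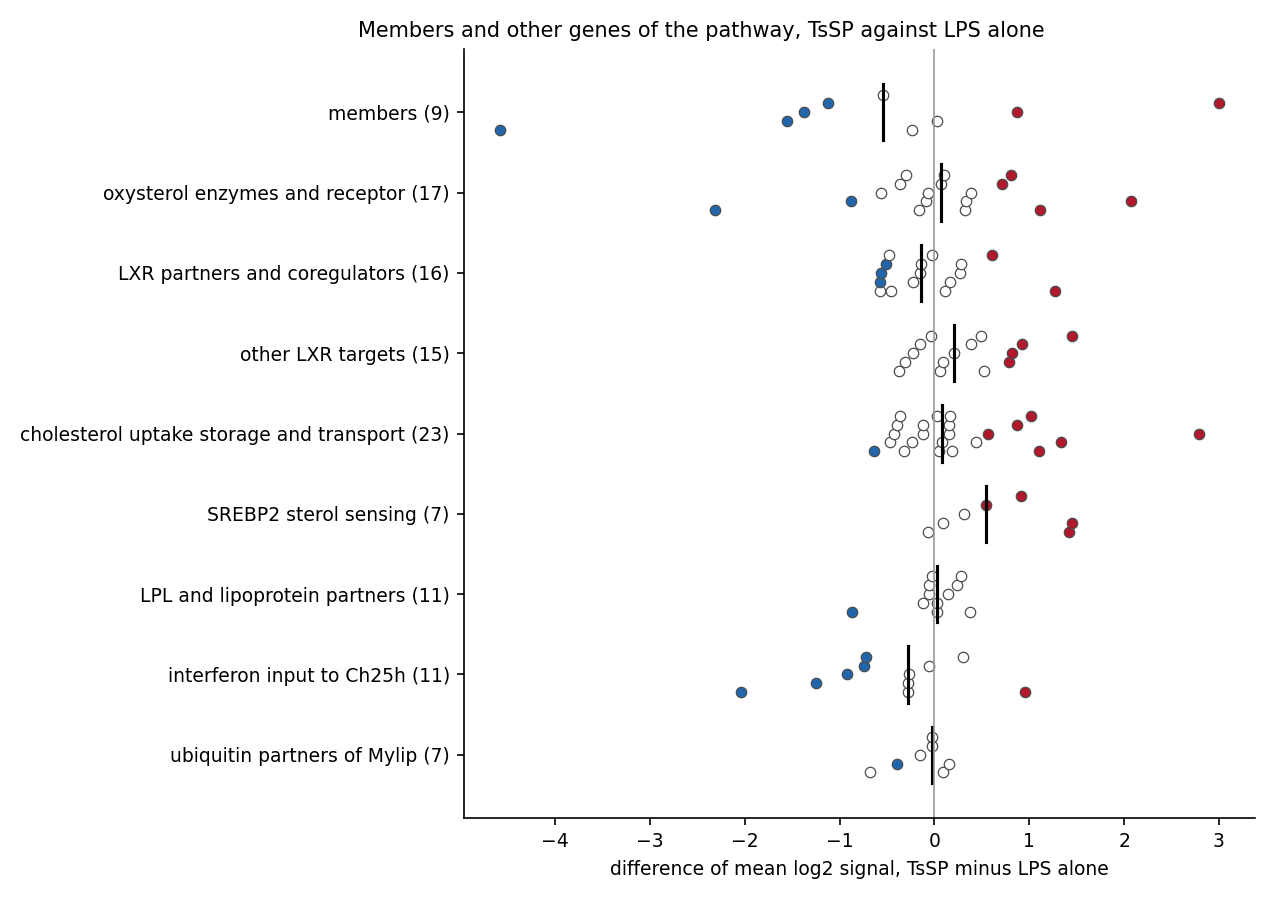
Log2 change for TsSP against LPS alone of the 9 measured members and of the measured genes of 8 related lists, with 1 point for each gene. Red and blue points passed the test as higher and lower, open circles did not, black bars mark list medians, and brackets give the number of measured genes. The SREBP2 list had 4 genes higher and 0 lower, and the interferon list 1 higher and 5 lower, beside 18.1% of all genes called.

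None of the 9 genes passed the test for inulin. For inulin against LPS alone, limma called 0 of 9 (0 of 9 at an unadjusted p under 0.05), and 0% of all genes were called, with 5.86% at an unadjusted p under 0.05. The changes ran from -0.050 to 0.17, and over the 7 genes above background the 95% intervals reached from -0.45 to 0.53. When inulin was added to TsSP, 0 of 9 were called (0 of 9 unadjusted), beside 0% of all genes (4.98% unadjusted), and the intervals of those 7 genes reached from -0.60 to 0.60. The interaction of inulin and TsSP was called in 0 of 9 genes (0 of 9 unadjusted) and 0% of all genes, with a smallest adjusted p among the members of 0.96. With 3 arrays in a group, an effect of inulin inside a gene's own interval is not excluded. With both agents against LPS alone, Abca1 was 7.63-fold and Lpcat3 1.76-fold higher, Mylip, Abcg1 and Lpl were 3.12-fold, 3.16-fold and 2.42-fold lower, and Ch25h was at least 8.92-fold lower. The corresponding values with TsSP alone were 8.00, 1.83, 2.95, 2.60, 2.17 and at least 9.39, from comparisons that share the 3 LPS arrays.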

How the data were processed

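Per the labels' protocols, the cells were lysed, RNA was purified on RNeasy columns, and it was biotin-labelled by the Affymetrix procedure. The deposited table gives 1 log2 value per probe set and array. The log base was inferred from the range, 1.32 to 18.9, and the sources used here name no background correction, normalization, software or genome build of the authors. Any compression by that processing would carry into the folds. Values were used as deposited. Of 28846 probe sets, 19572 had 1 gene symbol and 0 several, and RefSeq GRCm38.p6 held the gene number of all 19572. For 55 genes with several probe sets the one with the highest mean stood for the gene, and each member had 1.

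A 4-group limma model (limma 3.58.1, R 4.3.3) gave 6 contrasts, with two-sided p-values adjusted by Benjamini and Hochberg over 19505 genes and a threshold of 0.05. Where any array of the dimmer group was below background, the fold is a bound, at least N-fold: the brighter mean against the dimmer mean, with each dim array raised to its background level where the signal was lower. Members were named with all values. The 8 lists held 127 distinct genes, 107 measured, and up to 6 genes of each were named by the smallest p of the F test over groups, with further genes where 5 or fewer were counted in a direction. Alternatives were scaling, filter, probe set rule, background level, variance trend, arrays fitted, replicate block and each array left out. Members and lists were chosen with earlier results of these data known. The model script was tested on simulated data. Python 3.11.15 with matplotlib 3.10.9 made the plots.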

Additional observations from a re-analysis of the deposited data

How the results depend on the processing

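Each comparison was refitted under up to 19 alternatives, 12 of which left out 1 array. No change of a member or a named list gene that passed in either fit turned its direction, and a change that passed in neither was counted as having none. The 6 members called with TsSP kept their calls under every alternative run, and the count was 7 only for TsSP against LPS alone, with Nr1h3 added, after quantile normalization and among genes above background. With 1 array left out, 6 of 9 members were called in each of the 3 comparisons of arrays with and without TsSP. The difference for Abca1 with TsSP against LPS alone ranged from 2.81 to 3.26, and that for Ch25h from -4.72 to -4.51. Of the alternatives for named list genes, 143 ended a call and 50 made one. Same-numbered arrays of different groups did not deviate together (correlations of -0.094 to 0.10), so the numbers were not taken as pairs. With the replicate block, 6 of 9 members were again called in those 3 comparisons, and 3203 genes against 3525 without it for TsSP against LPS alone. The fit of only the arrays compared was not run for the interaction. The number of arrays limits the precision, and Apoe and Pltp lay at or near background.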
